A study of Mus musculus with 9 samples.

Results

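The genes described here encode the tricarboxylic acid cycle and the routes by which pyruvate, citrate, malate and amino acid carbon enter or leave it. They were chosen by symbol for what their products do, with no measured value in the rule, and number 34 of the 54281 genes in the count table. Each of the 34 was found as a single row, and all 34 were among the 15713 genes with enough reads to be tested. The cells sequenced were lung macrophages from 9 wild-type mice, all female and 12 wk old, in 3 groups of 3. The controls breathed air for 3 h in a whole-body chamber, and the other groups breathed ozone at 0.8 ppm for 3 h and were killed 24 h or 72 h later. The sources used here give neither the strain nor the time between air exposure and collection. Cells were washed from the lung by lavage with gentle massage and were not described as sorted, so that each library is the RNA of all cells recovered. In such bulk RNA, fewer cells of a type and less RNA per cell cannot be told apart. The comparisons ask how the macrophages' transcripts differ from air at each time after ozone, and between both times.

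The cycle takes acetyl-CoA from pyruvate, fatty acids or amino acids, condenses it with oxaloacetate to citrate, and oxidises it stepwise to carbon dioxide while reducing electron carriers for the respiratory chain. Pyruvate reaches it through the mitochondrial pyruvate carrier and the pyruvate dehydrogenase complex, which dedicated kinases switch off and phosphatases switch on. Resident alveolar macrophages are known for an oxidative, lipid-based metabolism, whereas inflammatory activation of macrophages is known to break the cycle at isocitrate and succinate dehydrogenase.

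The libraries held 47095448 to 60248252 estimated counts in all, and each member had between 148 and 25534 counts in a library. Of 14 resident alveolar macrophage markers none was at 0, and together they amounted to 33430 to 36077 CPM (counts scaled for library size) in air. At 24 h they came to 22810 to 31830 CPM, and at 72 h to 26522 to 31424 CPM. The lowest value at each time belonged to 24 h replicate 2 and 72 h replicate 1. These 2 libraries also held 759 and 1007 CPM of 11 serous cavity macrophage markers, against 4.41 to 7.6 CPM in the other 7 libraries, and all 11 markers were higher in both than in any other library. Among the defining genes of that list, Gata6 was at 0 in 2 air libraries, at most 0.294 CPM in the other 7 libraries, and at 2.57 and 3.29 CPM in these 2. B cell markers stood at 1640 and 1038 CPM in them against 158 to 200 CPM elsewhere, T cell markers at 585 and 65.1 CPM against 2.6 to 11.6 CPM, and transcripts of the mitochondrial genome at 5.25% and 6.18% of counts against 2.71 to 3.07%. Red cell markers were at 2909 and 2510 CPM, with 855 CPM in 24 h replicate 1 and 12.2 to 143 CPM in the remaining 6. Lung epithelial markers were lowest in this pair, at 615 and 550 CPM against 688 to 853 CPM. Counts of called members are therefore given with and without this pair of libraries.

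At 72 h after ozone the members stood lower than in air as a group, by small amounts. Against air, 32 of 34 had a negative log2 fold change, with a median of -0.18 and a range of -0.47 to 0.23, where 51% of all genes tested were negative with a median of -0.0073. Called lower, that is at an adjusted p under 0.05 in edgeR's quasi-likelihood test over all genes tested, were 6 of 34 members, against 3.77% of all genes, and no member was called higher. These 6 were Idh2, Idh3g, Mdh1, Mdh2, Mpc2 and Slc25a1. Slc25a11 lay just outside the threshold with an adjusted p of 0.0504, and Idh3g just inside it with 0.0491. In 23 members all 3 libraries at 72 h lay below all 3 air libraries, which held for 22.1% of all genes. Dendritic cell, monocyte, neutrophil and B cell markers stood higher in sum at 72 h than in air in all 3 libraries. B cell markers summed to 1038, 197 and 200 CPM against 158 to 179 CPM in air. T cell markers overlapped, at 65.1, 7.65 and 11.6 CPM against 2.6 to 10.2 CPM. Dendritic cell markers summed to 99.9, 115 and 113 CPM against 43.8 to 54.6 CPM in air, monocyte markers to 159, 39.5 and 40.9 CPM against 19.3 to 26.9 CPM, and neutrophil markers to 135, 74.6 and 79.1 CPM against 53.7 to 66.2 CPM. All 72 h libraries lay above air in 7 of 8 dendritic cell, 3 of 6 monocyte and 4 of 7 neutrophil genes. For B and T cell genes it was 3 of 10 and 1 of 10, and over all genes 17.5%. No gene of the lists was at 0 throughout. Lung epithelial genes lay above air in 7 of 12. Their sum, at 550, 716 and 714 CPM, did not exceed the air range of 688 to 853 CPM. The resident alveolar macrophage markers were lower in sum in all 3. The part of these cells in the members' levels was not tested.

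Against 24 h the picture was similar with more calls: 32 of 34 members were negative against 53.1% of all genes, the median was -0.19 against -0.0252, and 14 of 34 were called lower against 12.8% of all genes. No member was called higher, against 5.39% of all genes. Groups did not overlap in 22 members that were lower (22.7% of all genes) and in 1 that was higher, Pdk4 (15% of all genes). The members called lower were Idh2, Idh3a, Suclg1, Sucla2, Sdha, Fh1, Mdh1, Mdh2, Pdha1, Pdhb, Pdhx, Mpc2, Slc25a1 and Slc25a11. Both contrasts share the 72 h libraries, so that they are not independent.

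At 24 h no member was called against air in edgeR's test, against 0.00636% of all genes (1 gene). At an unadjusted p under 0.05 there was 1 member, Idh3a, against 14.7% of all genes. DESeq2 called that same gene and limma voom none. Negative members numbered 14 of 34, against 47.5% of all genes, and the median was 0.02. Idh3a, Idh3b, Pdha1, Pdk3 and Got2 lay above all air libraries in all 3 libraries (5 members, against 10.4% of all genes), and Idh3g, Pdk2 and Me2 below them (3 members, against 9.06%). All 24 h libraries lay above air in 9 of 10 B cell, 5 of 7 red cell and 3 of 7 neutrophil genes. Monocyte, serous cavity and lung epithelial genes gave 1 of 6, 2 of 11 and 1 of 12. T cell and dendritic cell genes gave 0 of 10 and 0 of 8, and all genes 10.4%. B cell sums were 168, 1640 and 159 CPM against 158 to 179 CPM in air. Resident alveolar macrophage markers were lower in sum in all 3. What these cells contribute was not tested.

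Summed over the 34 genes, the members took 3786 ± 49.5 CPM in air (SD, n = 3, as for all values that follow), 3792 ± 202 CPM at 24 h and 3368 ± 143 CPM at 72 h. The 3 libraries at 72 h, with 3242, 3338 and 3523 CPM, lay below the other 6, which held 3627 to 4018 CPM. Their median members were at log2 -0.23, -0.18 and -0.13 relative to the mean in air, and 30, 30 and 24 of 34 members were below every air library. Replicate 1, one of the pair with serous cavity markers, was the lowest of its group for 24 of 34 members. What part those other cells have in its levels was not tested. Such counts by single library were not made over all genes, so that they cannot be set against a share of all genes. Without this pair of libraries, the members called lower at 72 h were 2 of 34 against air (Idh2 and Mdh1, with 2.66% of all genes called lower) and 5 of 34 against 24 h (Idh2, Idh3a, Mdh1, Mdh2 and Slc25a1, with 8.5% of all genes). The medians were then -0.14 and -0.15, and at 24 h no member was called, against 0.0444% of all genes, with a median of 0.03. The members are abundant genes, with a median of 75.6 CPM against 14.9 CPM over all genes tested and a median SE of the log2 fold change of 0.069 against 0.131 at 72 h against air, so that smaller differences can be called among them than among most genes.

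**Figure D1:**
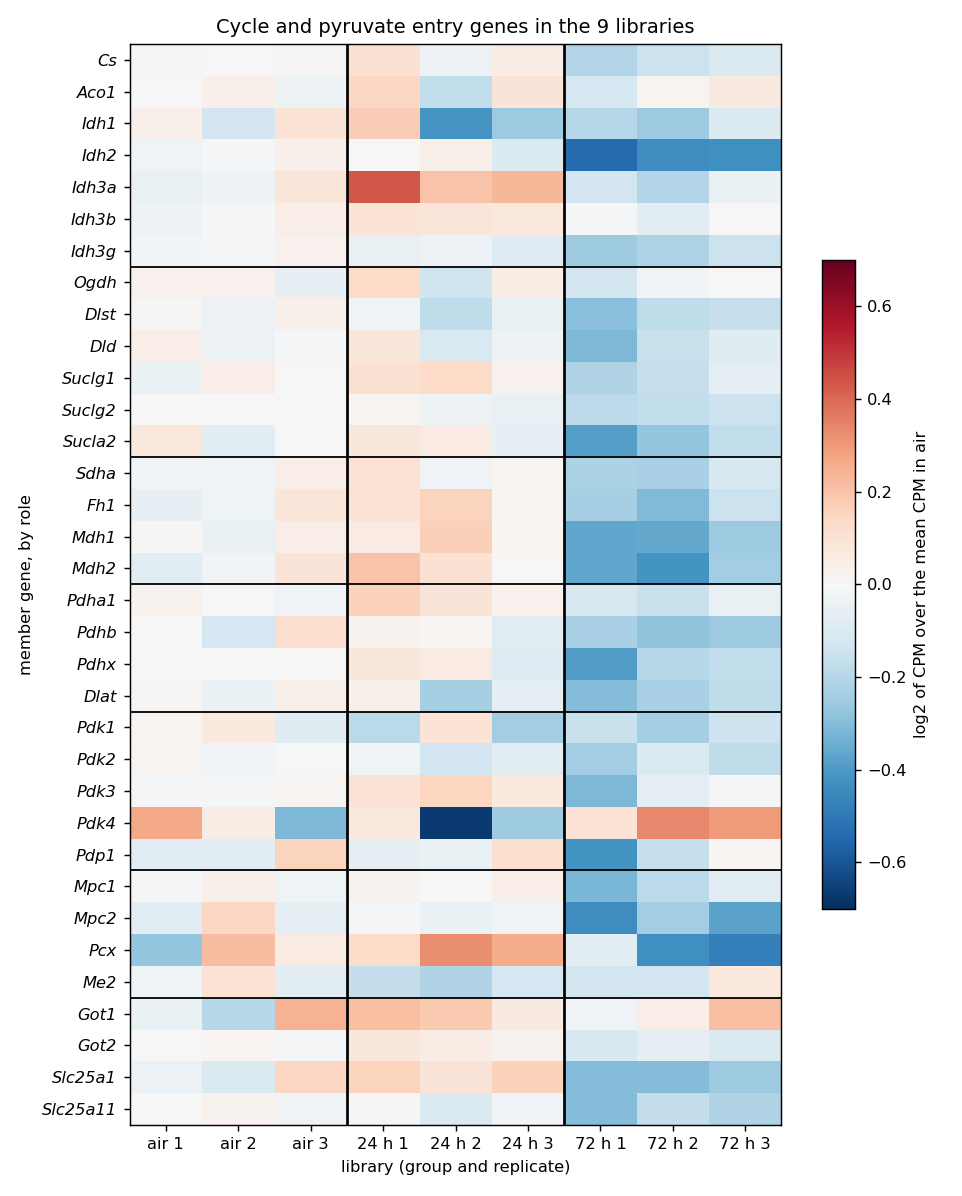
Level of each of the 34 genes in each library, as the log2 of its CPM over the mean CPM in air, with genes in rows grouped by role and libraries in columns. Most cells of the 3 columns at 72 h are blue, with column medians of -0.23, -0.18 and -0.13, while Pdk4 and Got1 have means above air there.

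The counts moved with the libraries used. Leaving out 1 library at a time, 0 to 7 members were called at 72 h against air: 0 without air replicate 2 or 3 or without 72 h replicate 2 or 3, 1 without air replicate 1, 24 h replicate 1, 24 h replicate 3 or 72 h replicate 1, and 7 without 24 h replicate 2. Calls over all genes moved as well, from 860 to 18 and 14 without air replicate 2 and 3. They were 7 and 20 without 72 h replicate 2 and 3, and 198 without air replicate 1. Without 24 h replicate 1, 24 h replicate 3 and 72 h replicate 1 they were 89, 85 and 59. Without 24 h replicate 2 they were 1625. Against 24 h, 1 to 11 members were called, with 1 without 72 h replicate 2, 5 without 24 h replicate 1, 7 without 72 h replicate 1, 8 without 24 h replicate 2 or 3, 9 without 72 h replicate 3, and 10 or 11 without an air library. Over all genes, 2855 calls became 340 without 72 h replicate 2, 1055 without 24 h replicate 1 and 1749 without 72 h replicate 1. Without 24 h replicate 2 and 3 they were 2499 and 1795, and without 72 h replicate 3 they were 1284. Without air replicate 1, 2 and 3 they were 2278, 1820 and 2226. Scaling mattered as well: with DESeq2 size factors or upper quartile scaling in the same fit, 2 and 1 members were called at 72 h against air and 9 and 8 against 24 h, while the calls over all genes went from 268 higher and 592 lower to 224 and 282 or 192 and 107 against air, and from 847 and 2008 to 886 and 1644 or 1163 and 1302 against 24 h. With these 2 scalings the members' medians were -0.16 and -0.13 against air, where the median of all genes was 0.01 and 0.05. A change of scaling shifts all genes of a contrast nearly alike, so that the distance between both medians could hardly move. The number of negative members moved less when a library was left out, from 31 to 33 of 34 against air and from 29 to 32 against 24 h.

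At the citrate and isocitrate steps, of 7 genes, Idh2 and Idh3g were called lower at 72 h than in air and Idh2 and Idh3a lower than at 24 h. The median log2 fold change was -0.15 against air and -0.14 against 24 h. For all genes, the share called lower was 3.77% against air and 12.8% against 24 h. Idh2 (chr7:80094846-80115392 on GRCm38, minus strand) encodes the mitochondrial NADP-dependent isocitrate dehydrogenase, which supplies NADPH inside the mitochondrion. It stood at 89.9, 90.6 and 93.9 CPM in the air libraries (91.5 ± 2.11), at 91.4, 93.9 and 85.5 CPM at 24 h (90.3 ± 4.36) and at 62.9, 67.6 and 67.8 CPM at 72 h (66.1 ± 2.78). All 3 libraries at 72 h were below the other 6, and air and 24 h overlapped. The transcript fell by 27.7% against air (log2 fold change -0.47 ± 0.06, adjusted p = 0.00952) and fell by 26.7% against 24 h (-0.45 ± 0.06, adjusted p = 0.00523). Against 24 h it was called with any library left out. Against air it was called in 5 of 9 such fits, with adjusted p of 0.0762 without air replicate 2, 0.0861 without air replicate 3, 0.0791 without 72 h replicate 2 and 0.0584 without 72 h replicate 3, while the fold change stayed between -0.50 and -0.43 in all 9. Without the pair of libraries with serous cavity markers its log2 fold changes were -0.41 (adjusted p = 0.00652) and -0.36 (adjusted p = 0.0134).

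Promoter sequences are shown for Idh2 and Slc25a1, 2 of the 3 members with the smallest joint p over the groups, because both fell at 72 h. They come from RefSeq on GRCm38.p6 and run up to the annotated start, without bases that lie in annotated exons. The window of the other such member, Mdh1, lies in an annotated exon at its far end and is not shown. The Idh2 sequence is chr7:80115393-80115600, minus strand, with 66.3% G and C, and holds none of the motifs searched. The Slc25a1 sequence is chr16:17928220-17928469, minus strand, with 70.0% G and C, and its capitals mark an E-box.
Idh2: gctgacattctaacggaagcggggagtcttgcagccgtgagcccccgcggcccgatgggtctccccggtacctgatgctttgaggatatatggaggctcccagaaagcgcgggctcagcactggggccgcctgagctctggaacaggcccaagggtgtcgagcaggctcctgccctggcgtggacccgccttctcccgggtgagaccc
Slc25a1: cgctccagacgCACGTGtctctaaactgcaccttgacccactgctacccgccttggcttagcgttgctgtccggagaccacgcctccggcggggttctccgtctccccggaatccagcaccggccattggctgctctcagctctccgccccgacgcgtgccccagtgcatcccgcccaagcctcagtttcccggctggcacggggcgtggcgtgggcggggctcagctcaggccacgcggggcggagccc
The search took 3 motifs on both strands in the 250 bases before each start: TNAAGGTCA, a binding sequence of the estrogen-related receptors, GCGCATGCG, that of NRF1, and the E-box CACGTG. None of the 3 contains another. RefSeq gave 41 promoters for 31 of the 34 members. The receptor motif was in no member promoter and in 1.14% of all 32851 promoters. The NRF1 motif was in 2 of the 41 member promoters, of 1 member, Ogdh, and in 1.45% of all. The E-box was in 6 of the 41, of 4 members, Ogdh, Pcx, Pdk2 and Slc25a1, and in 6.02% of all. Idh2, which differed most from air, held none of these letters in its window, and Slc25a1 held 1 of the 3 motifs.

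Idh3a, Idh3b and Idh3g encode the alpha, beta and gamma subunits of the NAD-dependent isocitrate dehydrogenase, the enzyme that makes 2-oxoglutarate in the cycle itself. Idh3a (chr9:54586334-54604661, plus strand) had the largest log2 fold change of the members at 24 h, with 84.6, 72.0 and 73.4 CPM (76.7 ± 6.94) against 60.4, 61.1 and 66.4 CPM in air (62.6 ± 3.29) and 57.1, 54.3 and 60.7 CPM at 72 h (57.4 ± 3.21). All 3 libraries at 24 h lay above the other 6. The difference of 24 h from air (log2 0.29 ± 0.08) did not pass in edgeR (adjusted p = 0.176 over all genes) and passed in DESeq2 (0.0332). From 24 h to 72 h the transcript fell by 25.2% (-0.42 ± 0.08, adjusted p = 0.0105), a call lost without 72 h replicate 2 (adjusted p = 0.0648) and held in the other 8 fits that leave out a library. Its difference at 72 h from air was -0.13 ± 0.08 and did not pass (adjusted p = 0.325).

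Idh3g (chrX:73778963-73786897, minus strand) had 124, 125 and 128 CPM in the air mice (126 ± 2.18), 122, 122 and 118 CPM at 24 h (121 ± 2.08) and 106, 108 and 114 CPM at 72 h (109 ± 3.80). The 3 groups did not overlap, with air highest and 72 h lowest. It fell by 13.2% against air (-0.20 ± 0.05, adjusted p = 0.0491), which no fit with a library left out held (adjusted p 0.0524 to 0.187). Against 24 h its adjusted p was 0.0729. Idh3b was at 96.6 ± 2.92, 102 ± 0.789 and 94.8 ± 2.65 CPM, with adjusted p of 0.409 at 24 h and 0.734 at 72 h against air. Its end overlaps Nop56 on the opposite strand only at chr2:130279309-130279313, so that reads at those bases alone are uncertain. Within the 3 subunit genes, scaled by exon length, Idh3a made up 13.9, 14 and 14.6% in the air mice, 18.2, 15.9 and 16.5% at 24 h and 14.3, 13.8 and 14.5% at 72 h. The 24 h shares lay above all others, at the smallest exact permutation p that 3 against 3 allows (0.1 two-sided, 0.3 adjusted over 30 share tests). This share was chosen after its values were seen.

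Idh1, the cytosolic NADP-dependent isocitrate dehydrogenase, was the most abundant member per length, at 144 ± 11.6 CPM per kilobase of exon in air. Its CPM were 406, 362 and 425 in the air mice (398 ± 32.1), 447, 298 and 333 at 24 h (359 ± 77.9) and 346, 333 and 372 at 72 h (350 ± 19.6). The 3 groups overlapped, 24 h replicate 1 being the highest and 24 h replicate 2 the lowest of all 9 libraries. Its log2 fold changes were -0.15 ± 0.14, -0.18 ± 0.14 and -0.04 ± 0.14 in the order 24 h to air, 72 h to air and 72 h to 24 h (adjusted p = 0.61, 0.437 and 0.893). Of the summed length-scaled level of Idh1 and Idh2, the mitochondrial form Idh2 took 19.8 ± 1.14% in air, 21.6 ± 3.64% at 24 h and 16.8 ± 0.872% at 72 h. The 72 h libraries, at 16.3, 17.8 and 16.3%, lay below all air libraries, at 19.2, 21.1 and 19.1% (exact permutation p = 0.1, 0.3 adjusted). Without the pair of libraries with serous cavity markers the difference from 24 h was -2.66 in place of -4.75 percentage points. Citrate synthase, Cs, which makes citrate, was at 254 ± 1.67, 261 ± 13.4 and 229 ± 8.33 CPM with all 72 h libraries lowest but adjusted p of 0.163 and 0.0586 against air and 24 h. Aco1, the cytosolic aconitase that also acts as an iron sensor, stayed near one level, at 163 ± 3.98, 166 ± 18.8 and 162 ± 10.5 CPM, with overlapping groups.

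**Figure D2:**
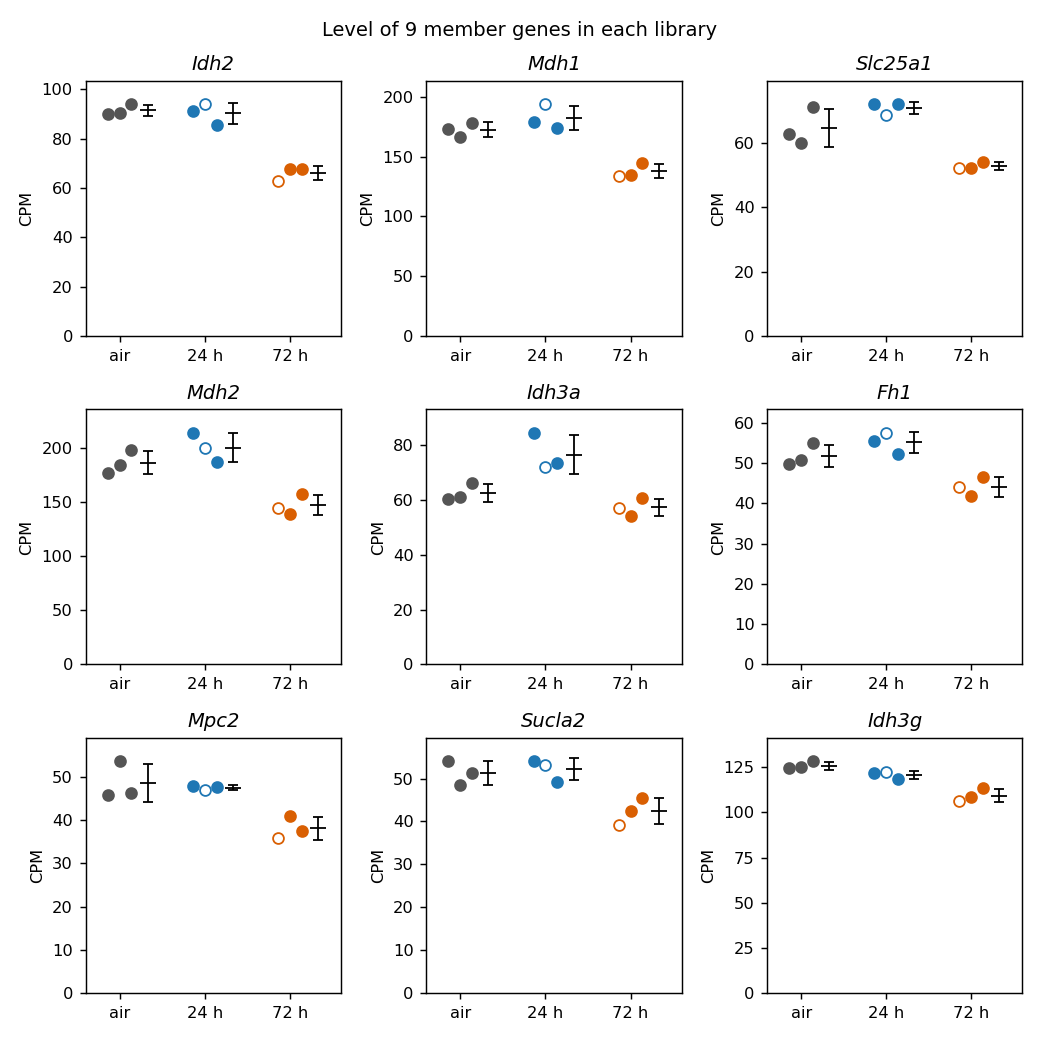
CPM of 9 member genes in each library of the 3 groups, 1 panel a gene with its own axis from 0, with the mean and SD beside the points. Open points are 24 h replicate 2 and 72 h replicate 1, the libraries with serous cavity markers, and all 72 h points lie below all air points in every panel except that of Idh3a.

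From 2-oxoglutarate to succinate, all 6 genes had negative fold changes at 72 h (median -0.17 against air and -0.15 against 24 h). None was called against air, with 3.77% of all genes called lower. Against 24 h, where 12.8% of all genes were called lower, 2 were. These 2 encode subunits of succinyl-CoA synthetase, the enzyme that makes a nucleoside triphosphate directly in the cycle. Suclg1 (chr6:73248382-73276911, plus strand), its shared alpha subunit, had 52.1, 55.4 and 53.7 CPM in the air mice (53.7 ± 1.67), 57.9, 58.9 and 54.9 CPM at 24 h (57.2 ± 2.09) and 46.4, 48.0 and 51.2 CPM at 72 h (48.5 ± 2.44). The 72 h libraries were the 3 lowest, and it fell by 15.1% from 24 h (-0.24 ± 0.06, adjusted p = 0.0222). Sucla2 (chr14:73525319-73596142, plus strand), the beta subunit of the ATP-forming enzyme, had 54.1, 48.6 and 51.3 CPM in the air mice (51.3 ± 2.74), 54.1, 53.3 and 49.3 CPM at 24 h (52.2 ± 2.55) and 39.2, 42.5 and 45.5 CPM at 72 h (42.4 ± 3.11). Again the 72 h libraries did not overlap with the others, and it fell by 18.8% from 24 h (-0.30 ± 0.07, adjusted p = 0.0228). Each was called in 5 of 9 fits that leave out a library, and lost without 24 h replicate 1 (adjusted p = 0.0826 for Suclg1 and 0.0947 for Sucla2), 24 h replicate 2 (0.0686 and 0.0581), 72 h replicate 1 (0.0636 and 0.0614) and 72 h replicate 2 (0.0938 and 0.0920).

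Suclg2, the beta subunit of the GTP-forming enzyme, was the least abundant of the 6 per length, at 39.2 ± 0.112, 38.5 ± 0.916 and 34.9 ± 0.403 CPM. All its 72 h libraries were lowest, with adjusted p of 0.0567 against air and 0.0513 against 24 h. Its share of the 2 beta subunit genes was 39.7 ± 1.34% in air, 38.9 ± 0.777% at 24 h and 41.6 ± 1.52% at 72 h, with overlap between air and 72 h. Ogdh, the substrate-binding subunit of the 2-oxoglutarate dehydrogenase complex, was the most abundant of the 6 per length and had the smallest fold changes at 72 h, with 410, 410 and 386 CPM in the air mice (402 ± 13.6), 440, 365 and 416 CPM at 24 h (407 ± 38.3) and 368, 396 and 403 CPM at 72 h (389 ± 18.6). Its log2 fold changes were 0.02 ± 0.08, -0.05 ± 0.08 and -0.07 ± 0.08 (adjusted p = 0.919, 0.74 and 0.625). The other subunits of that complex, the succinyltransferase Dlst at 188 ± 5.11, 178 ± 9.88 and 162 ± 8.08 CPM and the shared dihydrolipoyl dehydrogenase Dld at 128 ± 3.95, 127 ± 8.61 and 113 ± 9.0 CPM, were below all air libraries at 72 h and were not called (adjusted p = 0.088 and 0.174).

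From succinate to oxaloacetate, 4 of 4 genes were called lower at 72 h against 24 h, where 12.8% of all genes were. Against air 2 of 4 were called lower, with 3.77% of all genes. The medians were -0.36 and -0.28. In all 4 genes the 72 h libraries lay below the other 6. Of all genes, 22.7% lay below 24 h and 22.1% below air without overlap. Sdha (chr13:74322254-74350280, minus strand), the flavoprotein of succinate dehydrogenase and so also of complex II of the respiratory chain, had 314, 311 and 328 CPM in the air mice (318 ± 9.38), 341, 312 and 321 CPM at 24 h (325 ± 15) and 272, 271 and 294 CPM at 72 h (279 ± 13). It fell by 14% from 24 h (-0.22 ± 0.06, adjusted p = 0.0478), which no fit with a library left out held (adjusted p 0.0514 to 0.177). Fh1 (chr1:175600374-175625635, minus strand), fumarate hydratase, had 49.7, 50.7 and 54.9 CPM in the air mice (51.7 ± 2.78), 55.4, 57.5 and 52.4 CPM at 24 h (55.1 ± 2.61) and 44.0, 41.8 and 46.6 CPM at 72 h (44.1 ± 2.43). From 24 h it fell by 19.9% (-0.32 ± 0.06, adjusted p = 0.0139), called in 7 of 9 fits and lost without 24 h replicate 1 (0.0521) or 72 h replicate 2 (0.0688).

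The malate dehydrogenases differed most in this role. Mdh1 (chr11:21556787-21572367, minus strand) is the cytosolic enzyme of the malate-aspartate shuttle, which carries reducing equivalents into the mitochondrion. It had 173, 166 and 178 CPM in the air mice (172 ± 6.16), 179, 194 and 174 CPM at 24 h (182 ± 10.3) and 134, 135 and 145 CPM at 72 h (138 ± 5.84). It fell by 20.1% against air (-0.32 ± 0.06, adjusted p = 0.0319) and fell by 24.4% against 24 h (-0.40 ± 0.06, adjusted p = 0.00779). Mdh2 (chr5:135778480-135790398, plus strand), the mitochondrial enzyme that regenerates oxaloacetate, had 177, 184 and 199 CPM in the air mice (187 ± 10.9), 214, 200 and 187 CPM at 24 h (201 ± 13.7) and 145, 139 and 158 CPM at 72 h (147 ± 9.37). It fell by 21% against air (-0.34 ± 0.08, adjusted p = 0.0429) and fell by 26.5% against 24 h (-0.44 ± 0.08, adjusted p = 0.0093). Against air each was called only without 24 h replicate 2 among the 9 fits that leave out a library, with adjusted p up to 0.135 for Mdh1 and 0.180 for Mdh2 in the other 8. Against 24 h each was called in 8 of 9 and lost without 72 h replicate 2 (0.0511 and 0.0581). Mdh2 held 43.8 ± 1.15% of the length-scaled level of both genes in air, 44.2 ± 1.86% at 24 h and 43.5 ± 0.694% at 72 h, with overlapping groups, so that the share of the mitochondrial form differed by less than its spread. The level of this share depends on the length used, being 58.8, 59.2 and 58.5% with the longest transcript of each gene.

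In the pyruvate dehydrogenase complex, none of 4 genes was called against air and 3 of 4 were called lower at 72 h against 24 h (median -0.24 and -0.22). At 72 h, 3.77% of all genes were called lower against air and 12.8% against 24 h. Pdha1 (chrX:160122209-160138413, minus strand), the alpha subunit of pyruvate decarboxylase and the one the kinases phosphorylate, had 99.8, 98.2 and 96.4 CPM in the air mice (98.1 ± 1.69), 110, 105 and 100 CPM at 24 h (105 ± 4.68) and 90.9, 88.0 and 94.7 CPM at 72 h (91.2 ± 3.35). The 24 h libraries were all above air and the 72 h libraries all below it, and the transcript fell by 13% between both times (-0.20 ± 0.05, adjusted p = 0.0333). Pdhb (chr14:8165996-8173025, minus strand), the beta subunit, had 72.7, 66.8 and 78.7 CPM in the air mice (72.7 ± 5.93), 73.7, 73.4 and 68.9 CPM at 24 h (72.0 ± 2.67) and 62.0, 59.7 and 60.9 CPM at 72 h (60.9 ± 1.12). It fell by 15.4% (-0.24 ± 0.06, adjusted p = 0.0352), with 72 h below all other libraries.

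Pdhx (chr2:103021075-103073513, minus strand), which anchors dihydrolipoyl dehydrogenase in the complex, was the least abundant of the 4 per length. It had 17.9, 18.0 and 18.0 CPM in the air mice (18.0 ± 0.0343), 19.0, 18.7 and 16.9 CPM at 24 h (18.2 ± 1.15) and 13.7, 15.6 and 16.0 CPM at 72 h (15.1 ± 1.21), and fell by 17.0% from 24 h (-0.27 ± 0.08, adjusted p = 0.0459). The calls of this complex did not hold in most fits that leave out a library. With a library left out, Pdha1 was called only without air replicate 1 (adjusted p otherwise 0.0514 to 0.133), Pdhb only without air replicate 2 or 3 (otherwise 0.0532 to 0.126) and Pdhx in no fit (0.0641 to 0.162). Dlat, the acetyltransferase core, was at 57.2 ± 1.71, 54.0 ± 5.06 and 48.6 ± 2.21 CPM and was not called (adjusted p = 0.0901 against air and 0.18 against 24 h).

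Of the 5 genes for kinases and a phosphatase of the complex, none was called in any comparison. The shares of all genes called lower at 72 h were 3.77% against air and 12.8% against 24 h. Pdk1 had 63.5, 65.9 and 59.3 CPM in the air mice (62.9 ± 3.36), 55.2, 67.1 and 53.1 CPM at 24 h (58.5 ± 7.55) and 56.4, 53.3 and 56.9 CPM at 72 h (55.5 ± 1.96). Its highest library was 24 h replicate 2, and its adjusted p were 0.559 at 24 h and 0.245 at 72 h against air. Pdk2 had 21.9, 21.3 and 21.5 CPM in the air mice (21.6 ± 0.289), 21.1, 19.7 and 20.5 CPM at 24 h (20.4 ± 0.727) and 18.3, 20.2 and 19.1 CPM at 72 h (19.2 ± 0.948). Both ozone groups lay below air without overlap (-0.08 ± 0.06 and -0.17 ± 0.06, adjusted p = 0.505 and 0.122).

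Pdk3 had 33, 32.8 and 33.6 CPM in the air mice (33.1 ± 0.447), 35.5, 36.7 and 34.7 CPM at 24 h (35.6 ± 1.02) and 26.6, 31.6 and 32.9 CPM at 72 h (30.4 ± 3.31). The 24 h libraries were the 3 highest, and the log2 fold change from 24 h to 72 h was -0.23 ± 0.08 (adjusted p = 0.0725). Pdk4, the kinase known to follow fasting and fatty acid supply, was highest at 72 h, with 24.4, 21 and 16.3 CPM in the air mice (20.6 ± 4.05), 21.3, 12.7 and 17.1 CPM at 24 h (17.1 ± 4.30) and 21.7, 25.6 and 24.9 CPM at 72 h (24.1 ± 2.09). All 72 h libraries were above all 24 h libraries and overlapped with air. Its log2 fold changes were -0.27 ± 0.20, 0.23 ± 0.20 and 0.50 ± 0.20 (adjusted p = 0.507, 0.497 and 0.123), and its SE was the largest of the 34 members. Pdp1, the phosphatase that reactivates the complex, had 18.0, 18.0 and 21.2 CPM in the air mice (19.1 ± 1.82), 18.3, 18.5 and 20.6 CPM at 24 h (19.1 ± 1.25) and 14.3, 17.0 and 19.2 CPM at 72 h (16.8 ± 2.5), with overlap among all groups and an adjusted p of 0.36 at 72 h against air.

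A share within a library does not depend on how libraries are scaled. Of the length-scaled level of the 4 kinases, Pdk4 took 19.9, 17.6 and 14.4% in the air mice (17.3 ± 2.74), 18.0, 11.1 and 15.3% at 24 h (14.8 ± 3.51) and 20.9, 22.2 and 21.3% at 72 h (21.4 ± 0.659). The 72 h shares lay above the other 6 (exact permutation p = 0.1 against each group, 0.3 adjusted over 30 tests, the smallest the design allows). Scaled by length, Pdk3 was the leading kinase in every library, with 38.4 ± 2.06% in air, 42.5 ± 1.30% at 24 h and 37.1 ± 1.77% at 72 h. Its 24 h shares lay above the other 6 (exact permutation p = 0.1, 0.3 adjusted). This order depends on the scaling by length, since in CPM Pdk1 was above Pdk3 in every library (62.9 against 33.1 in air). With the longest transcript of each gene, Pdk3 took 36.2% and Pdk1 28.0% in air. Pdk1 held 24.0 ± 0.815, 23.0 ± 2.90 and 22.4 ± 1.86%, and Pdk2 20.3 ± 0.750, 19.7 ± 0.733 and 19.0 ± 0.780%. The lowest Pdk4 share of all, 11.1%, was in 24 h replicate 2.

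**Figure D3:**
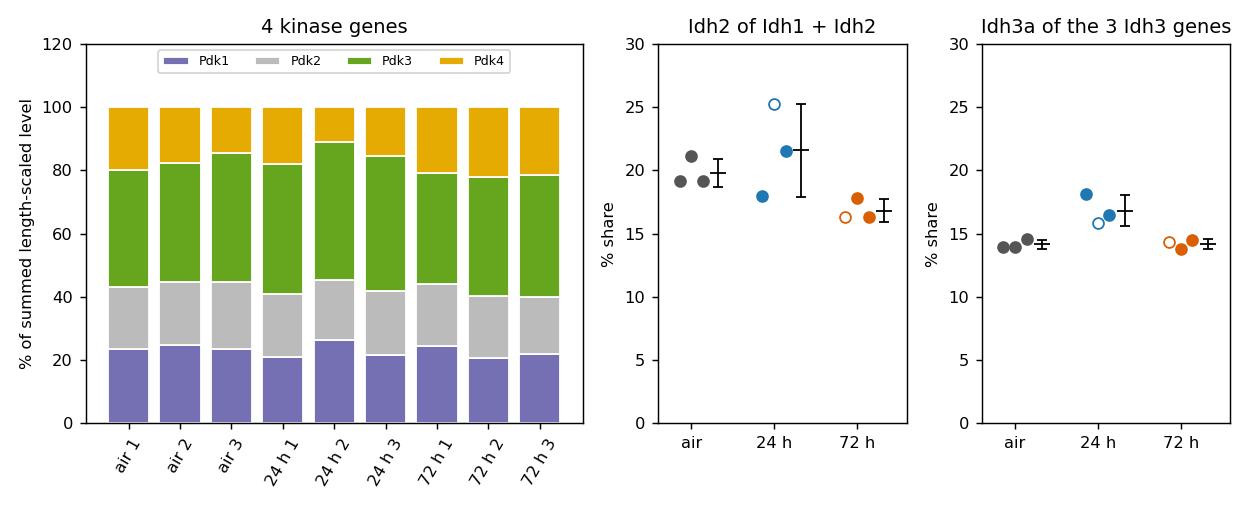
Left, the share of each kinase gene in the summed length-scaled level of Pdk1, Pdk2, Pdk3 and Pdk4 in each library, in percent. Middle and right, the share of Idh2 in Idh1 and Idh2 and of Idh3a in the 3 subunit genes, by group with mean and SD, open points being the libraries with serous cavity markers. Pdk4 takes 20.9 to 22.2% at 72 h, Idh2 is lowest at 72 h and Idh3a is highest at 24 h.

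Among the pyruvate carrier, pyruvate carboxylase and malic enzyme genes, Mpc2 (chr1:165460637-165481214, plus strand) was called lower at 72 h in both contrasts and the other 3 genes in neither. In these contrasts 3.77% (against air) and 12.8% (against 24 h) of all genes were called lower. Mpc1 and Mpc2 encode the subunits of the carrier that brings pyruvate into the mitochondrion. Mpc2 had 45.9, 53.7 and 46.3 CPM in the air mice (48.6 ± 4.40), 48.0, 47 and 47.7 CPM at 24 h (47.5 ± 0.530) and 35.9, 41.1 and 37.5 CPM at 72 h (38.1 ± 2.64). All 72 h libraries were below the other 6, and it fell by 21.6% against air (-0.35 ± 0.08, adjusted p = 0.0378) and fell by 19.8% against 24 h (-0.32 ± 0.08, adjusted p = 0.0234). The call against air held in 1 of 9 fits with a library left out, that without 24 h replicate 2 (adjusted p otherwise 0.0639 to 0.134). The call against 24 h held in 4 of 9, those without an air library or 24 h replicate 2 (adjusted p otherwise 0.0555 to 0.0933). Mpc1, the more abundant per length, had 93.5, 96.3 and 91.9 CPM in the air mice (93.9 ± 2.23), 95.4, 94.2 and 97.0 CPM at 24 h (95.5 ± 1.42) and 75.3, 82.7 and 89.2 CPM at 72 h (82.4 ± 6.95). It too was lowest at 72 h, with adjusted p of 0.116 against air and 0.0523 against 24 h, and the share of Mpc2 in the pair was 12.8 ± 0.759, 12.4 ± 0.120 and 11.6 ± 0.883%, a share chosen after its values were seen.

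Pcx, pyruvate carboxylase, which refills oxaloacetate, was the member with the lowest level per length, 0.894 ± 0.149 CPM per kilobase in air. Its CPM were 4.25 ± 0.710, 4.97 ± 0.341 and 3.38 ± 0.528, with a log2 fold change of -0.56 ± 0.17 from 24 h to 72 h that lay just outside the threshold (adjusted p = 0.0501). Me2, the mitochondrial malic enzyme, which makes pyruvate from malate, was one of the members not lower at 72 h than at 24 h, with 160 ± 10.3, 142 ± 4.29 and 153 ± 12.6 CPM. It was below all air libraries at 24 h (-0.17 ± 0.08, adjusted p = 0.343).

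Among the transaminases and carriers of citrate and malate, Slc25a1 was called lower at 72 h in both contrasts, Slc25a11 against 24 h alone, and the transaminases in neither. Here too 3.77% of all genes were called lower against air and 12.8% against 24 h. Slc25a1 (chr16:17925223-17928219, minus strand), whose promoter is shown above, exports citrate from the mitochondrion, where it can feed fatty acid synthesis in the cytosol. It had 62.7, 60.1 and 71.3 CPM in the air mice (64.7 ± 5.84), 72.0, 68.7 and 72.1 CPM at 24 h (70.9 ± 1.93) and 52.2, 52.2 and 54.1 CPM at 72 h (52.9 ± 1.1). The 72 h libraries were the 3 lowest and lay close together. It fell by 18.3% against air (-0.29 ± 0.07, adjusted p = 0.0442) and fell by 25.5% against 24 h (-0.42 ± 0.07, adjusted p = 0.00787). The call against air held only without 24 h replicate 2 (adjusted p otherwise 0.0750 to 0.153), and that against 24 h in 8 of 9 fits, lost without 72 h replicate 2 (0.0517).

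Slc25a11 (chr11:70644196-70647479, minus strand), the malate and 2-oxoglutarate carrier of the malate-aspartate shuttle, had 102, 104 and 100 CPM in the air mice (102 ± 1.81), 103, 95.3 and 101 CPM at 24 h (99.6 ± 3.84) and 82.9, 91.1 and 88.3 CPM at 72 h (87.4 ± 4.20). It was lowest at 72 h and fell by 12.2% from 24 h (-0.19 ± 0.05, adjusted p = 0.0453), which no fit with a library left out held (0.0553 to 0.196). The gene overlaps Rnf167 on the opposite strand, and the sources used here do not say whether counting used strand. Of the transaminases of the same shuttle, the cytosolic Got1 was at 22.9 ± 3.62, 25.2 ± 1.34 and 24.0 ± 2.05 CPM and overlapped in all comparisons, and the mitochondrial Got2 was at 104 ± 0.912, 108 ± 2.16 and 97.4 ± 1.73 CPM without overlap among the 3 groups (adjusted p = 0.224 and 0.0525 for 72 h against air and 24 h). Got2 held 70.6 ± 3.40, 69.2 ± 0.758 and 68.1 ± 1.89% of the length-scaled level of the pair.

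**Figure D4:**
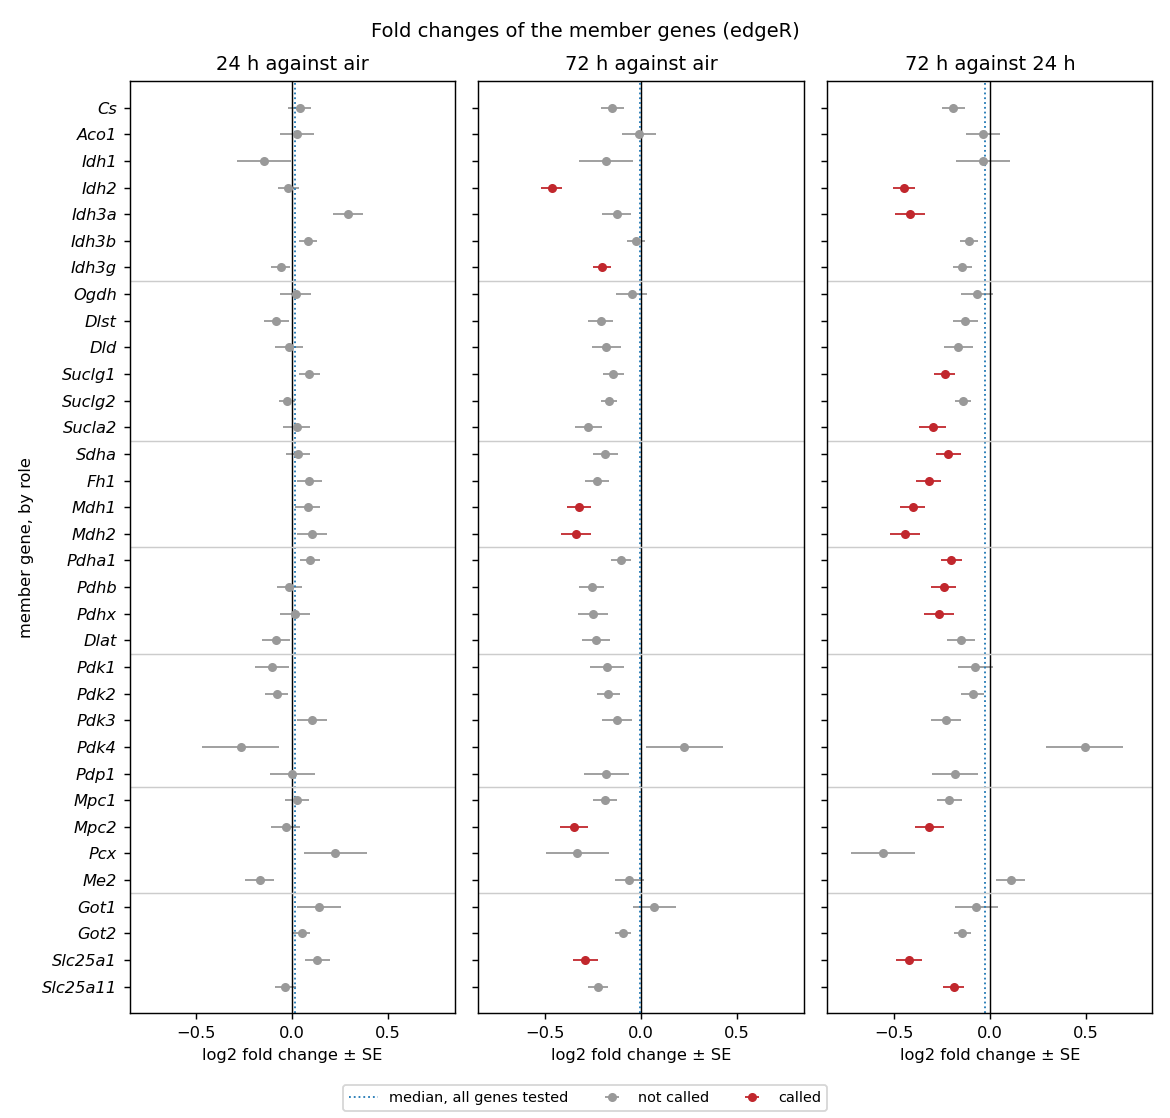
Log2 fold change ± SE of each of the 34 genes in the 3 comparisons, ordered by role and in red where called, with the median of all genes tested as a dotted line. No gene is red at 24 h against air, 6 are at 72 h against air and 14 at 72 h against 24 h, all to the left of 0.

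Levels spanned a wide range. In air the most abundant members per length were Idh1 at 144 ± 11.6, Sdha at 77 ± 2.27, Ogdh at 73.6 ± 2.49 and Mdh1 at 67.2 ± 2.40 CPM per kilobase, of which Sdha and Ogdh differ by about their spread. The least abundant were Pcx at 0.894 ± 0.149, Pdp1 at 4.23 ± 0.405, Pdhx at 4.57 ± 0.00873 and Pdk4 at 5.85 ± 1.15 CPM per kilobase. Exon length was taken as the union of annotated exons. With the longest transcript instead, Idh1 stayed highest at 173 CPM per kilobase and Mdh2 came next at 116, ahead of Sdha at 110. Of the 4 members whose enzyme works in the cytosol (Aco1, Idh1, Mdh1 and Got1), 1 was called lower at 72 h in each contrast, Mdh1, and the median log2 fold changes were -0.10 against air and -0.05 against 24 h. The other 30 had 5 and 13 called lower with medians of -0.18 and -0.20, where 3.77% and 12.8% of all genes were called lower. The median SE at 72 h against air was 0.10 for the 4 and 0.066 for the other 30, so that a given difference is less readily called among the 4. The difference between both sets was not tested.

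Beyond the 34 members, 33 further genes of the pathway were listed for their function, of which 31 were tested. At 72 h against air 3 of 31 were called lower, Sdhd, Lias and Ldha, and none higher, with a median of -0.13, where 3.77% of all genes were called lower and their median was -0.0073. Against 24 h, 9 of 31 were called lower and 1 higher, with a median of -0.22, where 12.8% and 5.39% of all genes were called lower and higher and their median was -0.0252, and at 24 h against air none was called. The remaining subunits of succinate dehydrogenase, Sdhb, Sdhc and Sdhd, all fell from 24 h to 72 h (-0.32 ± 0.08, -0.32 ± 0.07 and -0.32 ± 0.07, adjusted p = 0.0269, 0.0164 and 0.0176), beside Sdha above. Their assembly factor Sdhaf4 fell by 22.2% (adjusted p = 0.0359).

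Lias, which makes the lipoic acid that both dehydrogenase complexes carry, was at 21 ± 0.157, 20.7 ± 0.427 and 17.3 ± 0.733 CPM and fell by 17.5% against air (adjusted p = 0.0331) and fell by 16.1% against 24 h (adjusted p = 0.0188). Ldha, the lactate dehydrogenase subunit that draws pyruvate away to lactate, was also lower, at 519 ± 33.2, 556 ± 7.50 and 412 ± 27.9 CPM (-0.33 ± 0.08, adjusted p = 0.0435 against air and -0.43 ± 0.08, adjusted p = 0.0095 against 24 h). The dicarboxylate carrier Slc25a10 fell from 24 h to 72 h (-0.55 ± 0.13, adjusted p = 0.0219). Pdpr, the regulatory subunit of the pyruvate dehydrogenase phosphatase, was the single gene of this list called higher, from 37.0, 28.0 and 36.3 CPM at 24 h to 48.9, 50.6 and 52.6 CPM at 72 h (0.59 ± 0.12, adjusted p = 0.0135), with 45.3, 42.3 and 36.4 CPM in air.

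Acod1, which makes itaconate from the cycle's cis-aconitate in activated macrophages, was barely present, at 0.795 ± 0.188, 1.01 ± 0.344 and 0.556 ± 0.182 CPM, and was not called (adjusted p = 0.628, 0.394 and 0.133). Ldhb was at 21.5 CPM in 24 h replicate 2 and at most 1.49 CPM in every other library, and it was not called.

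Several member loci overlap other transcribed genes. Among them, Fh1, Mdh1, Pdha1 and Pcx overlap Kmo, Wdpcp, Map3k15 and Lrfn4 on the opposite strand, and each of these neighbours had fewer counts than its member. Mpc1 and Got2 have the named copies Mpc1-ps and Got2-ps1, with 19 and 24 counts in all 9 libraries against 42507 and 48309 for the genes themselves. Reads shared within these pairs are uncertain.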

How the data were processed

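RNA of lung macrophages from 9 mice was sequenced from stranded total RNA libraries, per the labels' protocols. The values the authors deposited are estimated counts per gene, of which 80.5% are whole numbers. The build GRCm38.p6 and the tools Salmon, DESeq2, FastQC and Trimmomatic 0.39 are named in the submitters' processing notes. The annotation release, strand setting and other versions were not given in the sources used here. Symbols, coordinates and exon lengths came from GENCODE M21 (GRCm38), which matched 54107 of 54281 identifiers.

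The counts were rounded to whole numbers and tested in R 4.3.3 with edgeR 4.0.16 (filterByExpr, TMM, robust quasi-likelihood fit of all 9 libraries with 3 groups), which kept 15713 genes and gave a common biological coefficient of variation of 0.312. The Benjamini-Hochberg method adjusted p-values across every gene in the fit, and called means an adjusted p under 0.05. The SE is the log2 fold change over the square root of F. CPM use the TMM-scaled library sizes for all values per library. Levels per kilobase divide CPM by the union of exons. Shares were compared by two-sided exact permutation tests. Totals were 47095448 to 60248252 counts, and the labels give no animal or batch beyond the replicate number, so that p-values measure the spread between these samples.

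The members, lists and tests were chosen with earlier results of these data known. Values in every library are given for members called in any contrast, for those with the smallest joint p or highest level per kilobase in each role, and for the kinases and Pdp1, and other pathway genes are named where called, with Acod1, except that some items are not reported here. Ldhb was chosen after its values were seen. Of that list Me3 had too few counts to test and Nnt, with 2 identifiers, was left out. Alternatives were DESeq2 1.42.0, voom of limma 3.58.1, other scaling, filters and sets of libraries, and a replicate term. The procedure was tested on simulated data, with changed genes drawn from all genes tested. Of 1.5-fold changes it recovered 17.9% at 24 h against air, 26.9% at 72 h against air and 23.9% at 72 h against 24 h. Of 2-fold changes it recovered 38.8, 47.8 and 44.8% in that order. These rates are for all genes tested and not for the members. The members have a smaller median SE (0.069 against 0.131 at 72 h against air) and were not simulated as a set.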

Additional observations from a re-analysis of the deposited data

Results flagged for a closer look

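For 14 members the change from air differed between 24 h and 72 h, in that the contrast of 72 h with 24 h, which is the difference of the 2 changes from air, passed the threshold over all genes. The difference was negative in each, so that the gene stood lower relative to air at 72 h than at 24 h. At the isocitrate steps it was -0.45 for Idh2 and -0.42 for Idh3a, and at succinyl-CoA synthetase -0.24 for Suclg1 and -0.30 for Sucla2. From succinate to oxaloacetate it was -0.22 for Sdha, -0.32 for Fh1, -0.40 for Mdh1 and -0.44 for Mdh2. In the pyruvate dehydrogenase complex it was -0.20 for Pdha1, -0.24 for Pdhb and -0.27 for Pdhx. Among the carriers it was -0.32 for Mpc2, -0.42 for Slc25a1 and -0.19 for Slc25a11. Both ozone groups include 1 library with serous cavity, B cell and T cell markers. Without this pair the difference passed for Idh2, Idh3a, Mdh1, Mdh2 and Slc25a1, with 8.5% of all genes called lower (12.8% with all libraries). What those cells contribute was not tested.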

How the results depend on the processing

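With 3 mice a group, counts of calls moved more than directions. At 24 h against air, members called were 0 in every alternative except DESeq2 (1), and genes called over all went from 1 to 0 with no filter, with the replicate block or with the 6 libraries compared, 7 without the 2 libraries with serous cavity markers and 618 in DESeq2 (0 to 2 with a library left out). At 72 h against air, 6 members called became 2 with DESeq2 size factors, 1 with upper quartile scaling, 1 with no filter, 2 with a filter of 1 CPM in 3 libraries, 0 with the replicate block, 3 with the 6 libraries compared, 2 without the 2 libraries and 12 in DESeq2 (0 to 7 with a library left out). Over all genes 860 became 506, 299, 270, 459, 35 and 1936 with DESeq2 size factors, upper quartile scaling, no filter, the 1 CPM filter, the replicate block and DESeq2 (7 to 1625 with a library left out), and 1122 without the 2 libraries. At 72 h against 24 h, 14 members became 9, 8, 8, 9, 7, 9 and 5 with DESeq2 size factors, upper quartile scaling, no filter, the 1 CPM filter, the replicate block, the 6 libraries and without the 2 libraries (1 to 11 with a library left out), and 19 in DESeq2 and 15 in voom, and 2855 genes became 1696 with no filter and 1474 with the replicate block (340 to 2499). The cause was not tested, except that the fits with fewer libraries have fewer samples. The members' median log2 fold change at 72 h against air ran from -0.20 to -0.13 over the alternatives that keep all libraries, was -0.14 without the 2 libraries and ran from -0.24 to -0.16 with a library left out. Against 24 h the latter range was -0.23 to -0.15. Same-numbered libraries of air and 24 h correlated in their deviations from the group mean at 0.17, -0.169 and -0.17. Those of air and 72 h correlated at -0.16, 0.0991 and -0.0869, and those of 24 h and 72 h at -0.539, -0.613 and 0.475. The 2 libraries with serous cavity markers, which carry different replicate numbers, correlated at 0.731. Through the group means this pair also enters the other values of the ozone groups. Whether replicate numbers pair the samples therefore cannot be decided from these values. Of the members' 102 fold changes, 19 took the other sign in some alternative, in 54 values, 32 of them with a library left out. None of these values was called in either fit. They were at most 0.0754 in size with all libraries in edgeR and at most 0.163 in the alternatives. At 24 h against air these were Pdp1 (-0.0018, -0.0047, -0.0060 and -0.0022 with DESeq2 size factors, upper quartile scaling, no filter and DESeq2), and, without the 2 libraries, Pdhx (-0.0010) and Dld (0.028). At 72 h against air they were Aco1 (0.0087, 0.041, 0.034, 0.0095, 0.063 and 0.0087 with DESeq2 size factors, upper quartile scaling, the 1 CPM filter, the 6 libraries, without the 2 libraries and DESeq2), Ogdh (0.0046 with upper quartile scaling, 0.013 without the 2 libraries) and Idh3b (0.025 with upper quartile scaling, 0.018 with the 1 CPM filter). At 72 h against 24 h they were Idh1 (0.023 and 0.0021) and Aco1 (0.023 and 0.0018) with upper quartile scaling and the 1 CPM filter, and, without the 2 libraries, Pdk1 (0.046) and Got1 (0.015). With a library left out, ranges at 24 h against air were -0.023 to 0.056 for Pdhx, -0.046 to 0.092 for Ogdh, -0.076 to 0.028 for Dld, -0.012 to 0.060 for Sdha, -0.077 to 0.040 for Pdhb, -0.018 to 0.057 for Sucla2, -0.079 to 0.040 for Mpc2, -0.042 to 0.12 for Aco1, -0.048 to 0.0066 for Idh2 and -0.066 to 0.079 for Pdp1. At 72 h against air they were -0.036 to 0.21 for Got1, -0.059 to 0.0031 for Idh3b and -0.062 to 0.039 for Aco1, and at 72 h against 24 h -0.12 to 0.051 for Pdk1, -0.12 to 0.0052 for Ogdh, -0.14 to 0.16 for Idh1 and -0.11 to 0.038 for Aco1. Without the 2 libraries, 14 of 30 differences in share moved by over 1.5 times and 2 changed sign, Pdk1 at 72 h against 24 h (-0.53 to 0.11 percentage points) and Idh2 at 24 h against air (1.78 to -0.051). Those of Idh2 and Pdk3 at 72 h against 24 h went from -4.75 to -2.66 and from -5.40 to -3.83, and that of Pdk4 at 24 h against air from -2.49 to -0.61. Levels per kilobase moved beyond their SD with the longest transcript for 31 of 34 members.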
